A study of Homo sapiens with 47 samples.

Results

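The 10 genes described here are the 4 FGF receptor genes *FGFR1*, *FGFR2*, *FGFR3* and *FGFR4* and 6 genes that are commonly read as output of the pathway, *SPRY1*, *SPRY2*, *SPRY4*, *DUSP6*, *ETV4* and *ETV5*. They were chosen by name, and all 10 were found among the 58051 Ensembl genes listed for every library. H9 (WA09) cells, an established hESC line, were sequenced as bulk polyA RNA in 47 libraries. Of these, 35 were whole cultures at 12 time points and 12 were fractions enriched for epithelial (EPI) or mesenchymal (MES) cells at passage (P) 5 and P8. Each group had n = 3 libraries, r1 to r3, one per differentiation experiment, except P9, which had n = 2 (r1 and r2).

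The t0 group was undifferentiated hESCs in mTeSR1. Cells of the 36 h group, called NMP-like (neuromesodermal progenitor-like), had been kept for 36 h in N2B27 lacking vitamin A with CHIR99021 (a WNT pathway agonist), rhFGF2, AGN193109 (an inverse agonist of retinoic acid receptors) and Y-27632 (a ROCK inhibitor). P1 to P10 were later passages with the same supplements named, so rhFGF2 was a named supplement of every group after t0. Whether mTeSR1 also supplied FGF2 at t0 was not examined, so comparisons with t0 are not read as FGF2 against none. No comparison here sets cells with FGF2 against cells of the same stage without it. The fractions came from P5 and P8 cultures by selective detachment with TrypLE, the EPI cells being the pre-neural progenitors (PNPs) and the MES cells the neural crest. The methods of the study give a higher dose of Y-27632 for the first passages than for later ones, so that dose and passage cannot be told apart at P5 against P1. All values come from a single cell line. Because whole cultures hold cells of several types, fewer cells of a type and less RNA per cell cannot be told apart.

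FGF ligands bind receptor tyrosine kinases of the FGFR family together with heparan sulfate and activate the RAS-ERK cascade. ERK activity switches on a set of early targets, among them the ETS transcription factors *ETV4* and *ETV5*, and feedback inhibitors that dampen the same cascade, the Sprouty genes (*SPRY1*, *SPRY2*, *SPRY4*) and *DUSP6*, a phosphatase of ERK. In the embryo, FGF signaling with WNT maintains axial progenitors at the caudal end of the body axis, and its decline accompanies entry into neural differentiation. These genes are transcriptional readouts, and neither receptor protein nor ERK activity was measured here.

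Levels are given as normalized counts, which are the rounded RSEM expected counts of a library divided by its TMM size factor over all 47 libraries, or as TPM where genes are compared with each other. Library totals ran from 13029491 to 64082859 expected counts with a median of 47292229, and 4 libraries (P6 r3, P4 r3, P1 r1 and P8 MES r2) were the shallowest, at 13029491 to 24317552. The lowest member value in any library was 79.6 normalized counts (*FGFR3* at P7 r2), so every member was detected in every library. *FGFR3* was the lowest member and rested on fewer reads than that in the shallowest library, P6 r3. It had 87.9 normalized counts there after division by a size factor of 0.307, and 0.880 TPM. In GENCODE 29 on GRCh38, *FGFR2* lies at chr10:121478334-121598458 (minus strand), *FGFR3* at chr4:1793293-1808872 (plus strand), *FGFR4* at chr5:177086886-177098144 (plus strand), *SPRY1* at chr4:123396795-123403760 (plus strand), *SPRY2* at chr13:80335976-80340951 (minus strand), *SPRY4* at chr5:142310427-142326455 (minus strand), *DUSP6* at chr12:89347232-89353271 (minus strand), *ETV4* at chr17:43527844-43579620 (minus strand) and *ETV5* at chr3:186046308-186110318 (minus strand). Counts cover whole genes, all of them protein coding. A gene was called in a comparison if it had an FDR under 1%, differed 2-fold or more and averaged 100 normalized counts or more in the compared libraries. The test was the quasi-likelihood F-test of edgeR with the differentiation as a block, and p-values were adjusted by Benjamini-Hochberg over all genes tested.

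*FGFR1* was the main receptor gene at every stage. It held between 74.1% ± 1.80 (SD, n = 3, t0) and 90.2% ± 3.90 (SD, n = 3, P10) of the summed TPM of the 4 receptor genes. Its level was 333 ± 17.0 TPM at t0, 258 ± 58.0 TPM at 36 h, 125 ± 17.9 TPM at P2, which was the lowest, and 274 ± 32.4 TPM at P10 (SD, n = 3 each). In normalized counts the t0 libraries stood at 22964, 25960 and 25242 (r1, r2 and r3), and the P2 libraries at 10664, 7643 and 9374. The 3 P2 libraries lay below all t0 libraries, and this pair of groups was not among the comparisons tested. *FGFR1* was called in none of the 11 comparisons. At P8 it was lower than at t0 by 0.71 on the log2 scale (SE 0.25, adjusted p = 0.0189), short of the threshold in both size and FDR. *FGFR1* overlaps *LETM2*, whose mean count was 1.13% of that of *FGFR1*.

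*FGFR2*, whose splice forms separate epithelial from mesenchymal FGF responses, had a low stretch from 36 h to P3 and higher values on both sides of it, and its highest whole-culture library held 34.2 times the normalized count of its lowest. The t0 libraries held 5294, 4455 and 4617 normalized counts (r1, r2 and r3). At 36 h they held 2618, 568 and 308, and at P1 1913, 256 and 258. In both groups r1 stood far above r2 and r3, and all 3 libraries of each group were below all of t0. By P5 the values were 4929, 2839 and 2178, at P7, where the mean was highest, 5462, 5853 and 8749, and at P8 7508, 2803 and 3371. At P10 they were 2504, 758 and 2021, all below the P8 libraries. The difference of 36 h from t0 was -2.29 on the log2 scale (SE 0.66, adjusted p = 0.0233) and that of P5 from P1 was 2.25 (SE 0.66, adjusted p = 0.0202). Neither passed the 1% threshold, although every differentiation had the same direction in each. DESeq2 with the same block called both. Without the r1 libraries the difference of 36 h from t0 was -3.39 and was called by edgeR, and without P1 r1 the difference of P5 from P1 was called by edgeR. Without the r2 or the r3 libraries neither was called. Over all alternatives they ran from -3.39 to -1.74 and from 1.83 to 3.52. P8 and t0 were not separated (-0.20, 95% interval -1.48 to 1.09).

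The summed TPM of 6 epithelial neural progenitor markers (*SOX2*, *CDX2*, *NKX1-2*, *EPCAM*, *CDH1* and *SOX21*) moved with *FGFR2* at some stages and not at others. It was 534 to 622 at t0, 285 to 515 at 36 h, 1073, 145 and 50.5 in the P1 libraries (r1, r2 and r3), 309.8 to 587 at P5, 265 to 756 at P7 and 428, 7.37 and 5.29 at P10. None of the 6 was at or under 3 counts in every library of a group. The t0 sum was made of other members than the later ones, since from t0 to P5 the median of *EPCAM* went from 257 to 3.83 TPM, that of *CDH1* from 165 to 0.0800 and that of *CDX2* from 0.150 to 277. At P1 and at P10, r1 was the highest of its group in both the markers and *FGFR2*. At P7 the library with the highest *FGFR2* value, r3, had the lowest marker sum (265, against 756 in r1 and 606 in r2). At 36 h r1 and r2 had like sums of 515 and 509 TPM beside *FGFR2* values of 2618 and 568. The sum of 4 hESC markers (*POU5F1*, *NANOG*, *DPPA4* and *TDGF1*) was 2352, 1616 and 836 TPM at 36 h and 1219, 103 and 99.5 at P1. As with *FGFR2*, r1 was the highest in both groups, but at P7 this sum was 5.67 to 14.1. The sum of 5 NMP markers (*TBXT*, *CDX1*, *CDX2*, *NKX1-2* and *SP5*) was 430.2, 1116 and 1166 TPM at 36 h and 1277, 534 and 354 at P1. The part of the marked cells in the *FGFR2* values was not tested.

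*FGFR3* and *FGFR4* fell. *FGFR4*, which is among the receptors expressed by undifferentiated pluripotent cells, was at 3258, 3278 and 3215 normalized counts at t0 (r1, r2 and r3), then at 2227, 2051 and 2392 at 36 h, 1275, 1942 and 1645 at P1, 281, 349 and 269 at P5 and 489, 478 and 638 at P8. The groups from t0 to P1 and P5 formed 4 separate bands in that order, with no library of one reaching the next. *FGFR4* was called lower at P5 than at P1 (log2 fold change -2.43, SE 0.39, adjusted p = 1.7e-04, a 5.41-fold difference) and at P8 than at t0 (-2.61, SE 0.39, adjusted p = 7.4e-06, 6.11-fold), with 3 of 3 differentiations lower in each. In TPM the mean passed from 52.7 ± 1.24 at t0 to 5.12 ± 0.864 at P5 (SD, n = 3 each), and the P8 libraries ran from 8.24 to 10.3.

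*FGFR3*, a receptor found in the embryonic neural tube among other tissues, was lower than at t0 in all libraries from P2 to P8. It was at 878, 1079 and 1119 normalized counts at t0 (r1, r2 and r3), 1136, 542 and 1177 at 36 h and 1690, 505 and 602 at P1, and then at 233, 96.6 and 165 at P2. At P5 the libraries held 157, 97.8 and 119. The P2 libraries lay below every earlier library, and P1 r1 was the highest of all 47. *FGFR3* was called lower at P5 than at P1 (-2.84, SE 0.50, adjusted p = 4.7e-04, 7.17-fold) and at P8 than at t0 (-1.52, SE 0.47, adjusted p = 0.00992, 2.87-fold). The second call sat just inside the threshold and was lost in 5 of 13 alternatives. The 13 include alternatives that only loosened the rule and could not remove a call. *FGFR3* values at P8 (272, 414 and 385) were above those at P5 in 3 of 3 differentiations, and the P9 libraries stood at 1055 and 606. The P10 libraries held 134, 196 and 530, those of r1 and r2 being below their P8 values. P8 against P5 gave 1.57 (SE 0.48), which was not called (adjusted p = 0.139).

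In the comparison of P5 with P1, 2 of the 10 genes were called lower and 1 higher, where 1.86% and 2.15% of the genes tested were called in those directions. In that of P8 with t0, 2 were called lower and 0 higher, beside 7.67% and 7.66% of all genes. By edgeR's unadjusted p, 5 of the 10 were under 0.05 there, all lower, beside 55.7% of all genes. Like *FGFR1*, *SPRY4* (-1.38, SE 0.65, adjusted p = 0.0795) and *ETV4* (-1.19, SE 0.54, adjusted p = 0.0674) were lower in 3 of 3 differentiations and not called. With only P8 and t0 in the fit, *SPRY4* and *ETV4* were called lower. The calls at P5 against P1 depended on the libraries in the fit. Without the r2 libraries, without the r3 libraries, or with only P1 and P5 in the fit, 0 of the 10 were called, and all genes called numbered 106, 107 and 2 in place of 871. Over 14 alternatives the log2 fold changes ran from -2.64 to -2.36 for *FGFR4*, from -3.08 to -2.18 for *FGFR3* and from 1.09 to 1.98 for *SPRY2*. The summed TPM of 4 hESC markers (*POU5F1*, *NANOG*, *DPPA4* and *TDGF1*) was lower over the same stages as *FGFR4*. It was 2992 to 3361 at t0, 836 to 2352 at 36 h, 1219, 103 and 99.5 in the P1 libraries and 20.4 to 42.4 at P5, and its part in the *FGFR3* and *FGFR4* results was not tested.

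**Figure D1:**
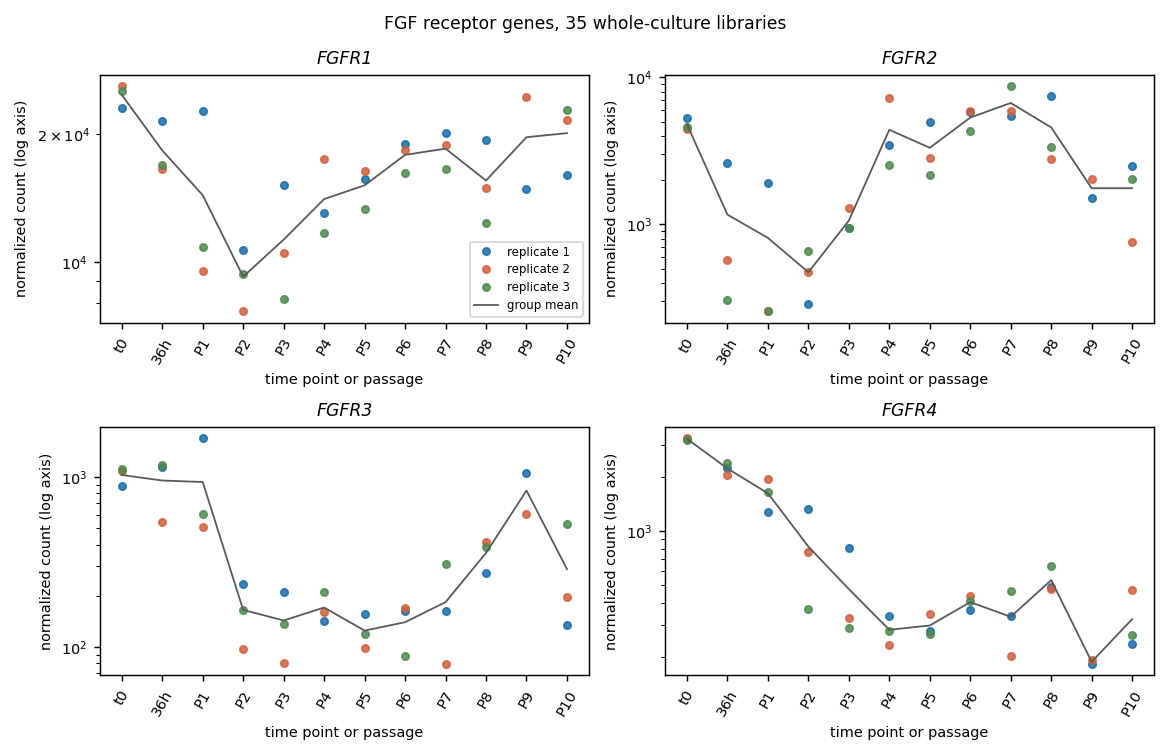
Normalized counts (log axis) of the 4 FGF receptor genes at the 12 time points, with 1 point per whole-culture library colored by replicate number and a line through the group means. *FGFR1* varied 2.68-fold between its highest and lowest group means, *FGFR2* 14.2-fold with a dip from 36 h to P3, *FGFR3* 8.24-fold and *FGFR4* 17.2-fold.

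The promoter windows of *FGFR3* and *FGFR4* are shown because these were the receptor genes called lower in the same 2 comparisons, with that of *DUSP6* as an ERK target. They run from 250 bases before to 50 bases after a RefSeq transcription start (GRCh38.p14), and where a gene had several entries the one nearest the GENCODE 29 gene start was taken. The *FGFR3* window is chr4:1793043-1793342 on the plus strand, that of *FGFR4* chr5:177086665-177086964 on the plus strand and that of *DUSP6* chr12:89352452-89352751 on the minus strand. Capitals mark the letters CGGAAG, part of the sequence that ETS factors such as ETV4 and ETV5 bind, searched on both strands (CTTCCG is the same letters on the other).
FGFR3: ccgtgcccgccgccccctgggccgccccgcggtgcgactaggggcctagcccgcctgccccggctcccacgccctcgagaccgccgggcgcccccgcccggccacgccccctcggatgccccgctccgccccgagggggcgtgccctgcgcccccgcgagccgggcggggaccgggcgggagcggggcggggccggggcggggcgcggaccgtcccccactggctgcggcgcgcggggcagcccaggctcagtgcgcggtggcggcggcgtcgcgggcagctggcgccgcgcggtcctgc
FGFR4: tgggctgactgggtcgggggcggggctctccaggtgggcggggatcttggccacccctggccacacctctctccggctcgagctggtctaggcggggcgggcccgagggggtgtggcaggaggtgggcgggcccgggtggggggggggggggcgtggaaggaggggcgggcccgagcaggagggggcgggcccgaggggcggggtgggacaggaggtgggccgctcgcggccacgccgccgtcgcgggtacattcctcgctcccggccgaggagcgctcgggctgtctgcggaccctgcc
DUSP6: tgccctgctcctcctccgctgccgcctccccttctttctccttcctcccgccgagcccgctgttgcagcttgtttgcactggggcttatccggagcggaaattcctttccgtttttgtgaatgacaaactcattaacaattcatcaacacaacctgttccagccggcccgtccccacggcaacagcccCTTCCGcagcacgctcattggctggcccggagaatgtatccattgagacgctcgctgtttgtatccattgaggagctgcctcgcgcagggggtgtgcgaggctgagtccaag
Neither receptor window held the letters, and their GC content was 86.3% and 78.7%. The *DUSP6* window held 1 match, starting 62 bases before the transcription start. Of 35116 RefSeq promoter windows of the same length, 19.5% held at least 1 match. A second search on both strands, for CTTTGA, which reads TCAAAG on the other strand, letters of the TCF/LEF sites through which WNT acts, found 0 matches in the 3 windows, against 12.9% of all windows. RefSeq windows were matched for 7 of the 10 genes. The nearest windows of *FGFR2* and of the other ERK targets matched, *SPRY1*, *SPRY2* and *SPRY4*, held 0 matches of CGGAAG. A second *SPRY1* window, 1591 bases from the gene start, held 1. The *DUSP6* match is therefore not a trait of the ERK targets here.

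The share of *FGFR2* in the receptor mix varied more, in percentage points between group means, than that of *FGFR1*, *FGFR3* or *FGFR4*. *FGFR2* held 11.5% ± 1.66 of the summed receptor TPM at t0, 3.72% ± 3.64 at 36 h, 2.80% ± 2.32 at P1, 22.5% ± 6.12 at P7 and 6.92% ± 4.25 at P10. *FGFR4* held 11.7% ± 0.290 at t0, 12.4% ± 6.37 at P1 and 1.99% ± 0.412 at P5. *FGFR3* held 4.70% ± 0.947 at P1 and 0.512% ± 0.204 at P6 (SD, n = 3 each throughout). The summed TPM itself was 449 ± 15.8 at t0, 146 ± 21.4 at P2 and 346 ± 7.16 at P7. Only gene totals were analysed here, and the abundance-weighted transcript length of *FGFR2* was 3653 bases at t0 and 3652 at P7 on average, so the mix of its splice forms was not resolved.

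**Figure D2:**
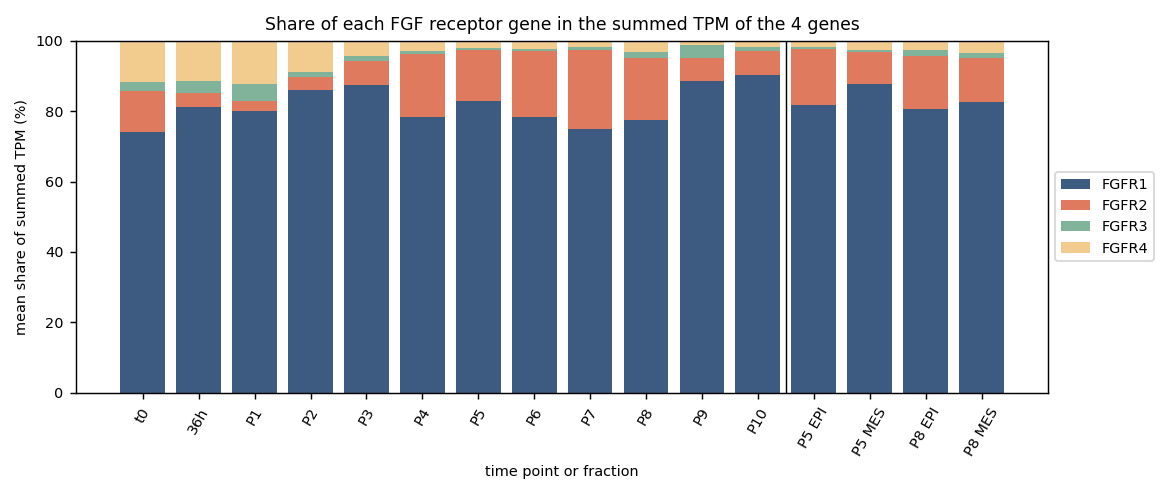
Mean share (%) of each receptor gene in the summed TPM of *FGFR1* to *FGFR4* for the 12 time points and, right of the line, the 4 fraction groups. *FGFR1* is the largest share in every bar, the *FGFR4* share shrinks from 11.7% at t0 to 1.99% at P5, and the *FGFR2* share is smallest at P1 (2.80%) and largest at P7 (22.5%).

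*SPRY2* was the 1 feedback gene called over time. Its product is an inhibitor of signaling downstream of receptor tyrosine kinases. The t0 libraries held 1825, 1904 and 1955 normalized counts and the P1 libraries 3196, 1371 and 1141 (r1, r2 and r3). At P5 the values were 4590, 5804 and 4167, all above P1. The call at P5 against P1 was a log2 fold change of 1.41 (SE 0.35, adjusted p = 0.00708, 2.67-fold), higher in 3 of 3 differentiations, and without the replicate block it was lost. At P1 the r1 library, which had the highest *SPRY2* value, also had the highest epithelial marker sum (1073 against 145 and 50.5 TPM). The summed TPM of 5 paraxial mesoderm markers (*TBX6*, *MSGN1*, *MEOX1*, *TCF15* and *MEOX2*) was 7.57, 364 and 359 in the P1 libraries and 4.56 to 7.94 at P5. The part of either in the *SPRY2* result was not tested. At P8 the libraries held 2819, 2003 and 1960. They lay below all P5 libraries, with a difference of -1.13 (SE 0.35, adjusted p = 0.140) that was not called.

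*DUSP6* had its lowest group mean at 36 h. The t0 libraries held 15907, 15867 and 16866 normalized counts and the 36 h libraries 3641, 8478 and 5443 (r1, r2 and r3), so the groups did not overlap. The difference was -1.50 (SE 0.39, adjusted p = 0.0126), lower in 3 of 3 differentiations but above the 1% threshold. P1 values were 14249, 14311 and 7679. At P2 they spread to 14377, 3625 and 4287, the r2 value being the lowest of the 35 whole cultures. P5 values were 12171, 21350 and 15288. Against t0, P8 differed by -0.23 (95% interval -1.02 to 0.56).

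*SPRY1*, another Sprouty inhibitor, had a like dip at 36 h. It was at 1468, 1913 and 1427 normalized counts at t0, 928, 349 and 574 at 36 h and 1308, 1991 and 2330 at P1 (r1, r2 and r3). The 36 h libraries lay below both neighboring groups. The differences were -1.39 at 36 h against t0 (SE 0.45, adjusted p = 0.0441) and 1.68 at P1 against 36 h (SE 0.45, adjusted p = 0.0233), each in the same direction in 3 of 3 differentiations and neither called. *SPRY1* was highest at P10, with 4860, 5506 and 3680.

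Of the 10 genes 0 were called at 36 h against t0, where 1.32% of genes were called higher and 1.37% lower, and 0 at P1 against 36 h, where 0.492% were called higher and 0.699% lower. By edgeR's unadjusted p, 3 of the 10 were under 0.05 at 36 h against t0 (*FGFR2*, *SPRY1* and *DUSP6*, all lower), beside 26.1% of all genes, and 2 at P1 against 36 h (*SPRY1* and *DUSP6*, both higher), beside 23.4% of all genes. DESeq2 with the same block called 875 genes at 36 h, with *FGFR2* and *DUSP6* lower, and 573 at P1, with *SPRY1* higher. The median log2 fold change at 36 h was -0.50 over the 4 receptor genes and -0.38 over the 6 feedback genes, beside 0 over all genes averaging 100 or more.

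*SPRY4* and *ETV4* differed widely between differentiations at P1 and P5, and in the same libraries. *SPRY4*, an inhibitor of RAS-ERK signaling, was tight at t0, at 10457, 10243 and 10271 normalized counts (r1, r2 and r3). At P1 the libraries held 18252, 3619 and 2014 and at P5 5148, 16574 and 11966. The r1 library was the highest at P1 and the lowest at P5, and r2 was above r3 at both. *ETV4*, an ETS factor of the PEA3 group, held 6637, 6579 and 6380 at t0, 11521, 2564 and 1230 at P1 and 2657, 7315 and 4689 at P5, with the same orders. Log2 CPM of the pair had a Pearson r of 0.77 over the 35 whole cultures and of 0.85 over the 12 fractions. Libraries share depth, batch and cell mix, so the value is a description.

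The fitted differences of *SPRY4* and *ETV4* at P5 against P1 were 0.56 (95% interval -0.80 to 1.92) and 0.12 (SE 0.55). Without the r1 libraries *SPRY4* reached 2.36 and was called, and *ETV4* reached 1.69 and was not. Without the r2 or the r3 libraries both were below 0, *SPRY4* at -0.20 and -0.10 and *ETV4* at -0.56 and -0.48. The P1 r1 library, at 21802304 counts one of the 4 shallow ones, also had the hESC marker sum of 1219 TPM given above. Its paraxial mesoderm marker sum was the lowest of the P1 libraries. Whether these differences bear on *SPRY4* and *ETV4* was not tested. *ETV4* overlaps *DHX8* on the other strand, whose mean count was 83.3% of that of *ETV4*, and the strand setting of the counting is not given in the sources used here.

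*ETV5*, the other PEA3 factor, followed neither of them closely over the whole cultures. It was at 4141, 3792 and 4341 normalized counts at t0 and at 6373, 5828 and 6355 at P5 (r1, r2 and r3), with no overlap. At P7 the values spread to 6975, 4801 and 1231 and at P8 to 4797, 1704 and 2252. The P7 r3 library was the lowest of the 35. Its neural crest marker sum was 693 TPM, against 107 and 133 in P7 r1 and r2. The P9 libraries, at 1110 and 1071 TPM, held *ETV5* values of 10566, the highest of the 35, and 6366. The part of these markers in the *ETV5* values was not tested. *ETV5* and *ETV4* had an r of 0.18 over the 35 whole cultures and of 0.42 over the 12 fractions, and *ETV5* and *SPRY4* of 0.25 and 0.46. P10 values were 3275, 6943 and 6425, overlapping P8, with r1 below its P8 value. P9 and P10 together differed from P8 by 1.27 (SE 0.37, adjusted p = 0.0303), which was not called.

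**Figure D3:**
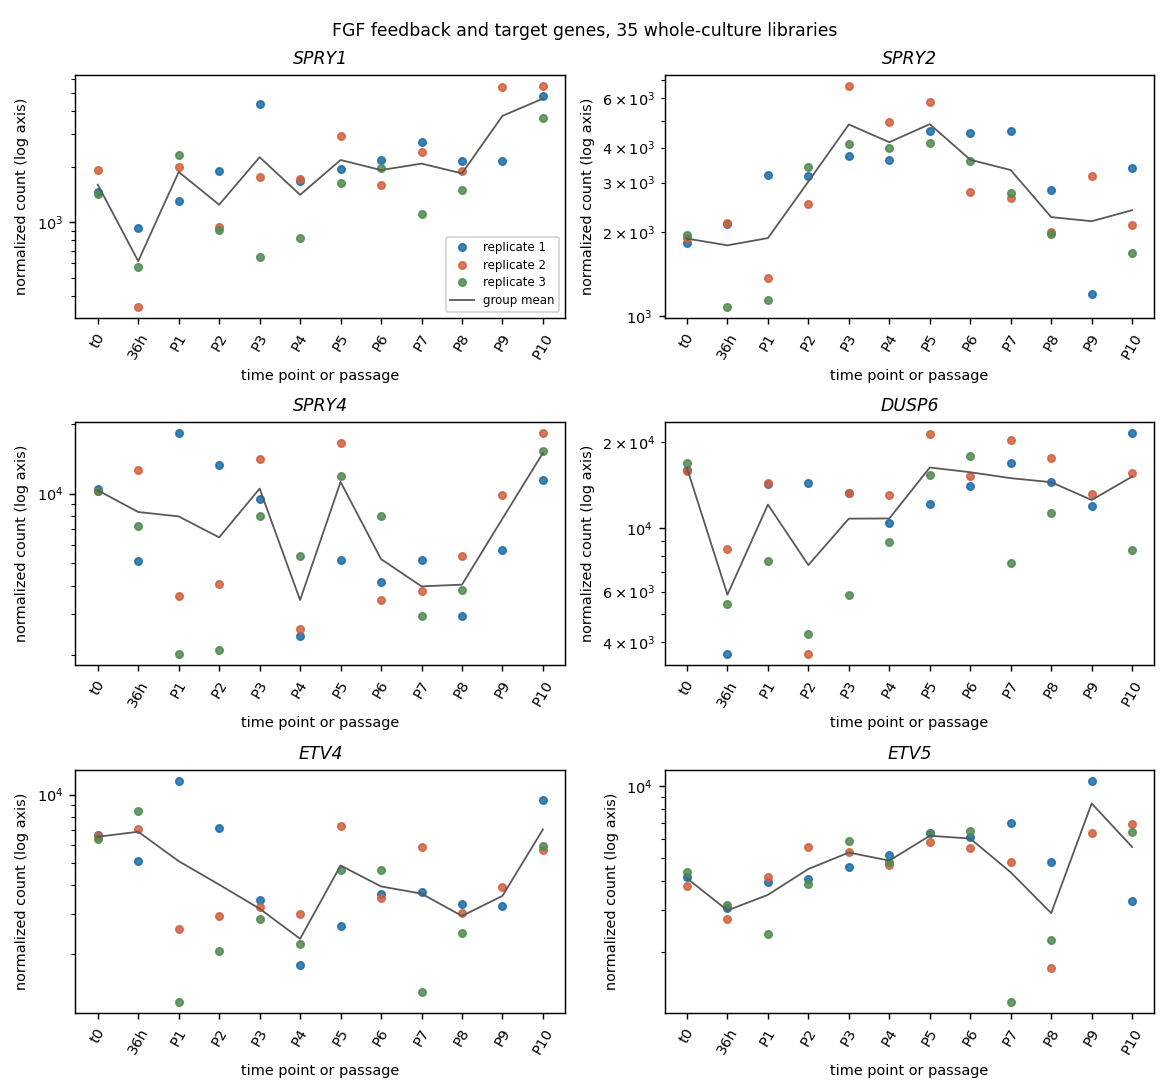
Normalized counts (log axis) of the 6 feedback and target genes at the 12 time points, with 1 point per whole-culture library colored by replicate number and a line through the group means. *SPRY1* and *DUSP6* have their lowest group mean at 36 h, and the r1, r2 and r3 points of *SPRY4* and *ETV4* lie far apart at P1, where *SPRY4* runs from 2014 to 18252.

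At P10 *SPRY4*, *ETV4* and *SPRY1* had their highest means of the 12 time points. *SPRY4* was at 2938, 5349 and 3815 normalized counts at P8 and at 11449, 18211 and 15283 at P10, with 3 of 3 differentiations higher and no overlap. *ETV4* was at 3316, 3008 and 2477 at P8 and at 9449, 5690 and 5971 at P10, again without overlap, while the P9 libraries held 3239 and 3949. In the planned comparison of P9 and P10 with P8, *SPRY4* differed by 1.41 (SE 0.60, adjusted p = 0.136), *ETV4* by 0.73 (SE 0.49, adjusted p = 0.366), *SPRY1* by 1.14 (SE 0.41, adjusted p = 0.0765) and *FGFR4* by -1.11 (SE 0.33, adjusted p = 0.0340). None of the 10 was called, where 0.772% of genes were called higher and 0.474% lower. By edgeR's unadjusted p, 5 were under 0.05, as were 26.2% of all genes, and DESeq2 called *FGFR4* lower and *ETV5* higher among 739 genes. The summed TPM of 5 neuron markers (*TUBB3*, *ELAVL3*, *ELAVL4*, *STMN2* and *DCX*) was 173 to 234 at P8, 158 and 462 at P9 and 281 to 449 at P10. The neural crest or mesenchymal marker sum was 113, 347 and 696 at P8 and 192, 899.7 and 1005 at P10 (r1, r2 and r3). The part of either in these differences was not tested. P10 r1 was the only P10 library with a high epithelial marker sum (428 TPM), and without it *ETV5* was called higher. At P8 against P5 0 of the 10 were called, beside 0.00460% of genes in each direction, while 5 had an unadjusted p under 0.05 in edgeR, as did 13.3% of all genes. DESeq2 called 155 genes and also 0 of the 10.

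**Figure D4:**
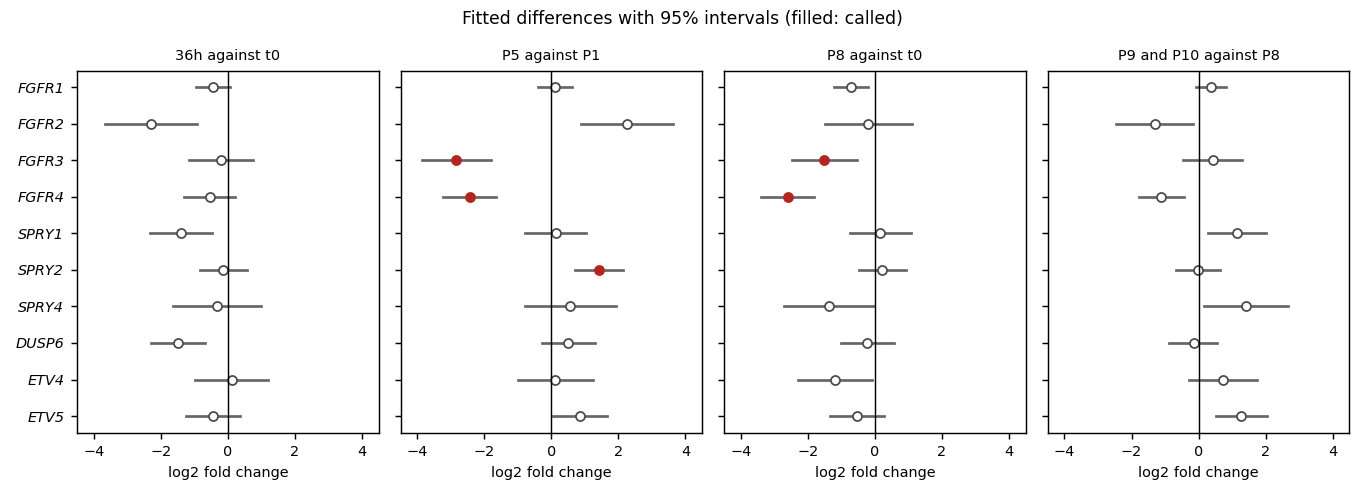
Log2 fold changes (horizontal axis) of the 10 genes in 4 comparisons of whole cultures, with 95% intervals as bars and filled points for called genes. *FGFR3* and *FGFR4* are filled at P5 against P1 and P8 against t0, *SPRY2* is filled at P5 against P1, and no point is filled at 36 h against t0 or at P9 and P10 against P8.

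Epithelial and mesenchymal fractions were compared within P5 and within P8. Markers separated the fractions most clearly at P5. The epithelial marker sum was 466 to 728 TPM in P5 EPI and 87.8 to 257 TPM in P5 MES, and the sum of 8 neural crest or mesenchymal markers (*SOX10*, *FOXD3*, *SNAI1*, *SNAI2*, *SOX9*, *TFAP2A*, *TFAP2B* and *TWIST1*) was 73.9 to 286 TPM in EPI and 445 to 648 TPM in MES. *CDH1*, listed as an epithelial marker, stayed at or under 0.250 TPM in all P5 fraction libraries. The neuron marker sum was also lower in P5 MES, at 163, 129 and 76.9 TPM against 291, 206 and 192 in P5 EPI, without overlap, and the part of these markers in the differences between the fractions was not tested. At P8 both sums overlapped between the fractions (epithelial 185 to 657 against 51.8 to 452 TPM, mesenchymal 89.8 to 720.1 against 256 to 1039 TPM). Within each differentiation the P8 MES library had the lower epithelial sum (452 against 657, 182 against 279 and 51.8 against 185 TPM) and the higher mesenchymal sum (256 against 89.8, 409 against 339 and 1039 against 720.1 TPM).

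*FGFR2* was the member with the largest difference between the fractions at P5. There the EPI libraries held 5354, 4000 and 2722 normalized counts and the MES libraries 2213, 1427 and 751 (r1, r2 and r3), without overlap. The difference was -1.52 on the log2 scale in MES (SE 0.20, adjusted p = 0.0139), 2.87-fold and lower in 3 of 3 differentiations. It was not called at the 1% threshold but was called by DESeq2 with the same block. At P8 the EPI libraries held 7651, 3180 and 2517 and the MES libraries 5119, 1985 and 1941, lower in 3 of 3 differentiations but with overlap between the groups (-0.53, SE 0.19, adjusted p = 0.352). The difference between the 2 passages was 0.99 (SE 0.27) with an adjusted p of 0.816 in the interaction test.

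*SPRY4* had the opposite direction. At P5 it was at 3815, 14242 and 12965 normalized counts in EPI and at 8706, 21143 and 19277 in MES, and at P8 at 2593, 5119 and 6832 in EPI and at 4788, 6697 and 11580 in MES (r1, r2 and r3). MES was the higher fraction within each of the 3 differentiations at both passages, and the groups overlapped at both passages. The differences were 0.78 at P5 (SE 0.23, adjusted p = 0.0721) and 0.71 at P8 (SE 0.23, adjusted p = 0.323).

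*SPRY1* was lower in MES at P5 in 3 of 3 differentiations (2020, 3484 and 2679 against 972, 2331 and 1015 normalized counts), a difference of -0.93 (SE 0.29, adjusted p = 0.0892), whereas at P8 it was higher in 2 of 3. *FGFR1* was at 16608, 17989 and 15091 in P5 EPI and 10460, 14708 and 10149 in P5 MES, without overlap (-0.47, SE 0.17, adjusted p = 0.134). *FGFR4*, *SPRY2*, *DUSP6*, *ETV4* and *ETV5* differed between the P5 fractions by at most 0.16 in size on the log2 scale, and their 95% intervals reached out to between 0.34 and 0.75. For *ETV5* the P5 values were 6461, 6080 and 6518 in EPI and 6625, 6061 and 6667 in MES.

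In edgeR's test 0 of the 10 genes were called between the fractions at P5 and 0 at P8, and so were 0.00% of all genes in each direction at each passage. Unadjusted p was under 0.05 for 4 of the 10 (and 4894 of 18885 genes) at P5 and for 2 (and 2261 genes) at P8. DESeq2 with the same block called 678 genes at P5 and 54 at P8, among them 1 of the 10 (*FGFR2*) at P5 and 0 at P8. The interaction called 0.00% of genes in each direction as well, with 2 of the 10 (*FGFR2* and *SPRY1*) at an unadjusted p under 0.05, beside 6.10% of all genes, and DESeq2 called 1 gene and 0 of the 10 in it.

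**Figure D5:**
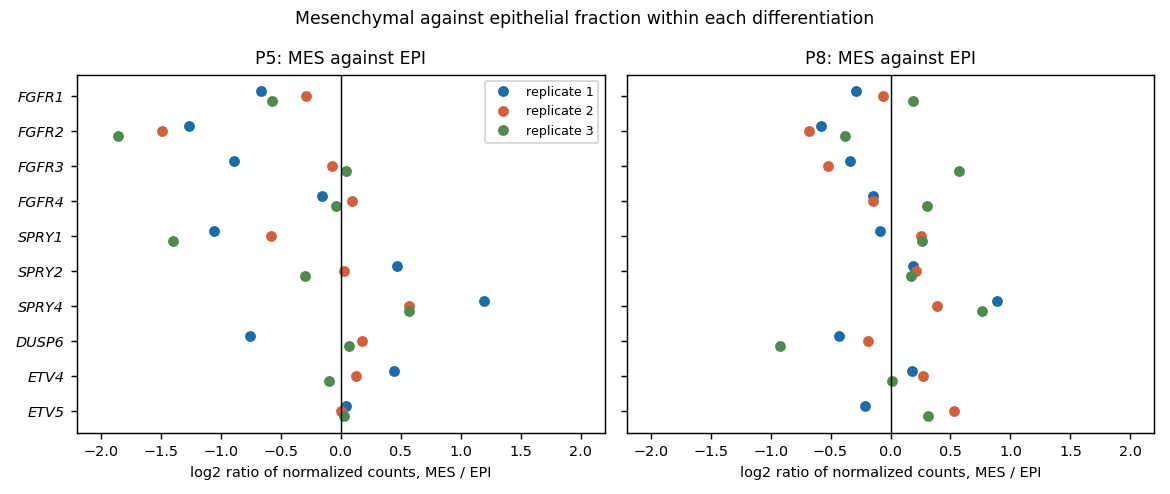
Log2 ratio of normalized counts in the MES over the EPI fraction of the same differentiation (horizontal axis) for the 10 genes at P5 and P8, with 1 point per replicate number. All 3 *FGFR2* points lie left of 0 and all 3 *SPRY4* points right of 0 in both panels, and the *FGFR2* points run from -1.86 to -1.27 at P5 and from -0.68 to -0.38 at P8.

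The receptor mix was compared between the fractions with an exact two-sided permutation test, in which 3 against 3 libraries cannot give a p under 0.10. *FGFR2* held 15.9% ± 3.90 of the receptor TPM in P5 EPI and 8.96% ± 4.28 in P5 MES (SD, n = 3 each, exact p = 0.20), and *FGFR4* 1.77% ± 0.0576 and 2.56% ± 0.124 (exact p = 0.10, without overlap). *FGFR1* took 81.8% ± 3.93 and 87.8% ± 4.45 (exact p = 0.30). At P8 *FGFR2* held 15.3% ± 5.02 in EPI and 12.4% ± 5.99 in MES (exact p = 0.50). Within the differentiations the MES library had the lower *FGFR2* share and the higher *FGFR1* and *FGFR4* shares in 3 of 3 pairs at both passages. After Benjamini-Hochberg adjustment over the 8 unpaired tests, 4 receptors at 2 passages, the smallest p was 0.53. The normalized counts of *FGFR4* itself overlapped (335, 299 and 252 in P5 EPI and 301, 319 and 244 in P5 MES), and the summed receptor TPM was 286 ± 37.9 in EPI and 188 ± 29.5 in MES.

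Between P5 and P8, 5 genes had the same direction in every differentiation of both fractions. The share of all genes that did so was not counted, so the number is not read as a trait of the members. The 2 fractions of a differentiation came from the same cultures and are not independent. *FGFR3* was at 172, 93.7 and 100 normalized counts in P5 EPI and 375, 327 and 232 in P8 EPI, and at 93.3, 89.4 and 103 in P5 MES and 297, 229 and 345 in P8 MES, without overlap in either fraction. The differences were 1.38 in EPI (SE 0.25, adjusted p = 0.0206) and 1.58 in MES (SE 0.25, adjusted p = 0.0117). *FGFR4* gave 0.75 and 0.78 (SE 0.14 each, adjusted p = 0.0236 and 0.0180). *SPRY2* gave -1.07 and -0.97 (SE 0.23 each, adjusted p = 0.0311 and 0.0326) and *SPRY4* -1.01 and -1.08 (SE 0.23 each, adjusted p = 0.0350 and 0.0250). *ETV5* gave -0.92 and -0.78 (SE 0.29 each, adjusted p = 0.0758 and 0.111). *FGFR2* differed in MES by 1.00 (SE 0.19, adjusted p = 0.0201) and in EPI by 0.02 (SE 0.19). Over the same passages the epithelial marker sum in EPI went from 728, 587 and 466 to 657, 279 and 185 TPM and the mesenchymal sum from 73.9, 147 and 286 to 89.8, 339 and 720.1 TPM (r1, r2 and r3), in the same direction in each differentiation. In MES neither sum had the same direction in all 3, the epithelial sum going from 257, 239.8 and 87.8 to 452, 182 and 51.8 TPM and the mesenchymal sum from 463, 445 and 648 to 256, 409 and 1039 TPM. The part of these markers in the differences was not tested.

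At the 1% threshold 0 of the 10 were called between P5 and P8 in EPI, where 0.228% of genes were called higher and 0.0318% lower, and 0 in MES, where 0.582% were called higher and 0.116% lower. Unadjusted p was under 0.05 for 5 of the 10 in EPI and 8 in MES by edgeR, beside 31.3% and 31.1% of all genes. DESeq2 called 606 genes in EPI, with *FGFR3*, *SPRY2* and *SPRY4* among them, and 752 in MES, with *FGFR2*, *FGFR3* and *SPRY4*.

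Other genes of the pathway were counted from 4 lists. Their counts stand beside 1.32% of all genes called higher and 1.37% called lower at 36 h against t0, and 7.66% and 7.67% at P8 against t0. Of 16 FGF ligand genes tested at 36 h against t0, 2 were called higher and 0 lower. They were *FGF17* and *FGF8*, ligands of the embryonic tail end, at medians of 11.5 and 9.08 normalized counts at t0 and 2453 and 253 at 36 h. The 36 h libraries ran from 576 to 14129 for *FGF17* and from 171 to 647 for *FGF8*. The log2 fold changes were 9.18 (SE 1.78) and 6.14 (SE 1.5), so their size is uncertain. At P8 against t0, *FGF9* (median 10.1 at t0 and 764 at P8) and *FGF17* (779 at P8) were called higher, and *FGF2* was called lower by 2.58 on the log2 scale (median 5791 at t0 and 1157 at P8, SE 0.40, adjusted p = 1.2e-05). The list median was 1.17 at 36 h and -1.11 at P8, beside 0 over all genes in both, and most of the list was low, with 6 and 5 ligand genes averaging 100 normalized counts or more.

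Among 25 other feedback and ERK target genes, 3 were called higher and 2 lower at 36 h. The largest were *SHISA2*, which retains FGF and WNT receptors in the endoplasmic reticulum (log2 fold change -5.49, SE 0.80, adjusted p = 7.2e-05), *FLRT3*, a membrane protein that binds FGFRs (3.40, SE 0.78, adjusted p = 0.00517), and *SPRED2*, an inhibitor of RAF activation (1.83, SE 0.19, adjusted p = 7.0e-07). At P8 against t0, 4 were called higher and 6 lower, the largest being *SHISA2* (-4.10), *MYC* (-3.14) and *ETV1*, the third PEA3 factor (-2.21, SE 0.32, adjusted p = 6.2e-06). The list medians were -0.08 and -1.07. The called feedback genes did not share a direction at either time.

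Of 26 genes of the receptor adaptors and the RAS-ERK cascade, 0 were called at 36 h (by edgeR's unadjusted p, 4 were higher and 1 lower under 0.05). At P8, 3 were called higher and 1 lower, led by *SOS2*, a RAS exchange factor (1.28, SE 0.17), *MAP2K1*, which encodes the ERK kinase MEK1 and was called lower (median 4041 normalized counts at t0 and 2012 at P8, adjusted p = 1.4e-07), and *HRAS* (1.07, SE 0.20). The list median was 0.10. Of 25 coreceptor and decoy genes tested, 1 was called higher at 36 h, the cadherin gene *CDH2* (2.70, SE 0.40, adjusted p = 8.7e-05), and 0 lower. At P8, 7 were called higher and 1 lower, led by *NCAM1* (3.07, SE 0.75), the glypican gene *GPC3* (2.59, SE 0.69) and *CDH2* (2.47, SE 0.40), and the list median was 0.80. *FGFRL1*, the FGFR without a kinase domain, was among those called higher (2.03, SE 0.41, adjusted p = 2.7e-04). No gene of the 4 lists was called between the fractions at P5 or P8 by edgeR, which called 0 of all 18885 genes tested. At an unadjusted p under 0.05, as reached by 25.9% of all genes at P5, 9 of the 25 other feedback and ERK target genes were higher and 2 lower in P5 MES, against 7 and 3 of 26 cascade genes, 7 and 6 of 23 coreceptor and decoy genes and 1 and 4 of 10 ligand genes. At P8, where 12.0% of all genes reached it, the counts higher and lower in MES were 3 and 0, 2 and 1, 5 and 5, and 1 and 0 for the same lists in that order.

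Likeness of pattern was measured as Pearson r of log2 CPM over the 47 libraries, among 13259 genes that averaged 100 normalized counts or more. *FGFR2* was nearest to *LPL* (0.90) and *DTNA* (0.88), *FGFR4* to *CNKSR1* and *CDC42BPG* (0.91 each) and *FGFR3* to *RAB13* and *BBC3* (0.85 each). *FGFR1* was nearest to *JARID2* (0.84) and *ZDHHC23* (0.83). *SPRY2* was nearest to *ZNF443* (0.80) and *SPAG6* (0.79), *SPRY4* to *GNL3L* (0.80) and *PSMA7* (0.77), *DUSP6* to *PDCL3* (0.80) and *UBFD1* (0.77), *SPRY1* to *CYP2U1* (0.76) and *UNC5B* (0.73), *ETV5* to *EFR3B* (0.76) and *TTC23* (0.73) and *ETV4* to *NSUN2* (0.72) and *ADRM1* (0.71). The libraries share their differentiations and stages, so these values describe this series only.

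Within the members, *FGFR3* and *FGFR4* had an r of 0.65 over the 35 whole cultures and 0.94 over the 12 fractions, and *FGFR3* and *SPRY2* of -0.71 and -0.90. *SPRY1* and *DUSP6* had 0.61 over the whole cultures and 0.39 over the fractions. *SPRY4* and *DUSP6*, both feedback inhibitors, had 0.34 and 0.26.

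Spread between differentiations was itself large for these genes. The coefficient of variation within a time point had a median over the 12 time points of 42.3% for *SPRY4*, 41.1% for *FGFR2*, 37.8% for *FGFR3*, 33.8% for *SPRY1*, 30.1% for *DUSP6*, 28.2% for *SPRY2* and 25.1% for *ETV4*. It was 17.7% for *FGFR4*, 17.1% for *FGFR1* and 16.5% for *ETV5*, and 13.0% was the median over 13293 genes. In the order of the 12 group means, neighbors without overlap of their libraries numbered 3 of 11 for *FGFR4*, 1 for *FGFR1*, 1 for *FGFR3* and 0 for the other 7 genes. The same count was not made over all genes, so these numbers cannot be read as high or low. *FGFR4* was highest at t0 and lowest at P9, *FGFR3* highest at t0 and lowest at P5, *FGFR2* highest at P7 and lowest at P2, *FGFR1* highest at t0 and lowest at P2. *SPRY1*, *SPRY2* and *DUSP6* were all lowest at 36 h, *SPRY4* and *ETV4* were lowest at P4 and highest at P10, and *ETV5* was lowest at P8 and highest at P9.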

How the data were processed

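Bulk polyA RNA of 47 libraries was analysed. For each library the authors ran RSEM 1.3.0 (cutadapt 1.16, STAR 2.5.2b and GRCh38, per the submitters' notes) and deposited expected counts and TPM per Ensembl gene. TPM divides the counts by effective length and scales them to the library, and the deposited weighted transcript length, another value of the authors' files, was used only as a description. Annotation release, strand setting and read filters are not given in the sources used here. Symbols (57447 of 58051 genes) and coordinates came from GENCODE 29. Of the expected counts 9.33% were not whole, and they were rounded for testing.

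Time points (35 libraries) and fractions (12 libraries) were fitted separately with edgeR 4.0.16 (limma 3.58.1, R 4.3.3; TMM, filterByExpr, glmQLFit, glmQLFTest), with the replicate number as a block, over 21750 and 18885 genes. The series design says that each experiment ran through all time points. Deviations of libraries with the same number from their group means correlated at 0.65 on average between P5 EPI and P5 MES and at 0.78 at P8, but at -0.01 between t0 and 36 h and at -0.02 between P1 and P5. A gene was called at an FDR under 1%, 2-fold and a mean of 100 normalized counts. No pair of replicates agreed within sampling noise. Receptor shares were compared with exact permutation tests (SciPy). Alternatives were DESeq2 1.42.0 with the block, no block, other size factors, filters, libraries and thresholds, and leaving out replicates.

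The 10 genes, the lists and the tests were chosen with earlier results of these data known. All 10 are described. For each, the 2 genes nearest by Pearson r of log2 CPM (prior count 2) are named, and from each pathway list the 3 called genes with the largest log2 fold change at 36 h or P8 against t0 or between fractions. *FGFRL1* was added after its values were seen. Counts carry no molecular identifiers, so precision from depth covers counting error only.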

Additional observations from a re-analysis of the deposited data

How the results depend on the processing

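Of 145 counts of members called under an alternative, 113 stayed within 1.5 times the count reported and 32 did not. The 113 include many counts of 0 that had little room to change. At P8 against P5, between the P8 fractions and in the interaction, edgeR called 2, 0 and 0 of all genes. With DESeq2 and the block, 2 members were called at 36 h against t0, 1 at P1 against 36 h, 2 at P9 and P10 against P8, 1 between the P5 fractions, and 3 between P5 and P8 in EPI and 3 in MES, where edgeR called 0. Of all genes DESeq2 called 875, 573, 739, 678, 606 and 752 in that order. The main edgeR fit called 585, 259, 271, 0, 49 and 132. At an FDR under 5%, 3 were called at 36 h against t0, 1 at P1 against 36 h, 2 at P9 and P10 against P8, 1 between the P5 fractions, and 3 between P5 and P8 in EPI and 3 in MES. All genes called numbered 958, 630, 786, 505, 493 and 611 in that order. With all 47 libraries in one fit, 2 were called at 36 h against t0 and 1 at P9 and P10 against P8. That fit called 745 and 508 of all genes there. With only the compared groups, 0 were called at P5 against P1 and 4 at P8 against t0, beside 2 and 3302 of all genes. With no low-count filter, 1 was called at P8 against t0, 1 between the P5 fractions and 1 between P5 and P8 in MES. All genes called numbered 3288, 82 and 269. With at least 10 counts in every library, 1 was called at 36 h against t0, beside 442 of all genes. Without P1 replicate 1, 2 were called at P1 against 36 h (*SPRY1* higher and *ETV4* lower), beside 809 of all genes. Without P10 replicate 1, 1 was called at P9 and P10 against P8, beside 1006 of all genes. Without the 4 shallowest libraries, an alternative chosen after seeing the totals, 1 was called at P1 against 36 h, beside 740 of all genes.

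Leaving out each replicate in turn gave 0 to 1 members called at 36 h against t0, 0 to 2 at P1 against 36 h, 0 to 5 at P5 against P1 (5 without replicate 1, 0 without replicate 2 and 0 without replicate 3) and 1 to 1 at P8 against t0. In the other 7 comparisons leaving out a replicate gave 0, and without replicate 2 or 3 no gene at all was called in them. At P5 against P1 without replicate 1, all genes called numbered 1232. Without the replicate block, 1 member was called at P8 against t0 (*FGFR4*) and 2 at P5 against P1 (*FGFR3* and *FGFR4*), and the block changed the count in no other comparison. *FGFR3* lost its call at P8 against t0 without the block, without the low-count filter and without each replicate, at log2 fold changes between -1.60 and -1.46. *FGFR4* kept its call there under all 13 alternatives, between -2.76 and -2.50. The 13 include a looser FDR threshold and no fold change minimum, which could not remove a call.

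Of 1450 alternative values for single members, 46 had the opposite sign. Of these, 3 were of differences of at least 0.5 in size, and none was of a called difference. The 1450 values include alternatives that changed only the FDR threshold or the fold change minimum. Such alternatives left the log2 fold change as it was, so their values could not change sign. The *FGFR3* share of receptor TPM at P8, MES minus EPI, was -0.03 percentage points and turned to 0.03 with normalized counts in place of TPM and ran from -0.19 to 0.29 as replicates were left out in turn, with 0.29 without replicate 2. The other 38 share values kept their sign. Those of the paired sign-flip test with the replicate block (-6.93 percentage points for *FGFR2* at P5, exact p = 0.25) repeat the main value, so they could not change sign. With 3 pairs that test cannot give a p under 0.25. The cause of these changes was not tested.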
